A study of Mus musculus with 12 samples.

Results

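Gcn5 null and floxed mouse embryoid bodies were compared at day 3 of differentiation over 16077 of the 18269 genes in the deposited table, namely those with a mean normalised read count of at least 10 in either day 3 group. Of these, 1282 lie on chromosome 11, the chromosome that carries Gcn5 itself, 14742 lie on other chromosomes and 53 have no position in the annotation. Chromosome 11 is described apart from the remaining 14795 genes, called the other chromosomes here.

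Embryoid bodies are aggregates that embryonic stem cells form when they are allowed to differentiate, and their cells leave pluripotency and start to take on germ layer identities. The floxed group (Gcn5fx/fx, line 4_1) carries loxP-flanked Gcn5 alleles, the null group (Gcn5-/-, line 4C2 in the sample titles and 4_C2 in the series text) lacks functional Gcn5, and strain C57BL/6 is given for both. RNA was taken at day 3 and day 5, with 3 samples per group and 12 in all, and the day 3 comparison uses 6 of them. Each genotype is 1 embryonic stem cell line, so an effect of the line and an effect of the genotype cannot be told apart. The series text speaks of duplicates while the labels list 3 samples per group, and nothing says that they came from separate cultures, so the p-values measure only the spread between these samples, which may be technical.

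Gcn5 (gene symbol Kat2a) is the acetyltransferase subunit of the SAGA and ATAC coactivator complexes and acetylates lysines of histone H3 at active promoters. Kat2b (Pcaf) is its close paralog and can take its place in these complexes. Mouse embryos without Gcn5 fail during early development, and the study asked which genes change in embryoid bodies when it is lost, with FGF signalling and Myc as its stated interest.

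The values are read counts divided by 1 size factor per sample, and they correspond to 23090915 to 26413938 reads in the floxed and 18022071 to 26803369 in the null samples. A change is given as the null minus floxed difference in log2(value + 1) with its standard error (SE), and a gene is said to rise or fall where the limma p-value, adjusted over 17000 tested genes, was under 0.05. In the 6 day 3 samples the first principal component held 36.3% of the variance and separated the genotypes, and the second held 25.6% and set both samples numbered 3 apart from the others. Counts of list members at an unadjusted limma p under 0.05 are given without the share of all genes at that threshold. They are therefore no result about a list. Values of single samples are listed in the order of replicates 1, 2 and 3. The greatest rises, and the greatest falls outside chromosome 11, were chosen among genes whose groups did not overlap. For genes chosen in that way the lack of overlap is not a result. Where a gene described with its values lost its call when 1 sample was left out, those samples and the adjusted p without them are given, and the cause was not tested.

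Kat2a had normalised counts of 2078, 2226 and 2379.8 in the floxed and 649, 614 and 840.5 in the null samples. The groups did not overlap, and the log2 change was -1.68 ± 0.11 (SE, n = 3 per group, limma adjusted p = 1.01e-05). These are reads over the whole gene, and the table does not show which exons the reads of the null samples came from. Kat2b had 1519.9, 1542 and 1232 in the floxed and 1421, 1769.9 and 1594 in the null samples, and its change of 0.16 ± 0.14 did not pass the test (adjusted p = 0.533). Among 26 other SAGA and ATAC subunits outside chromosome 11, 1 rose, Taf9b on the X chromosome (0.72 ± 0.17, adjusted p = 0.0299), a TFIID paralog subunit. That call was lost without null sample 2 or 3 or floxed sample 1 or 2 (adjusted p 0.0579 to 0.119). Of all genes compared, 1.93% rose on the other chromosomes and 31.5% on chromosome 11. On chromosome 11 Usp22, the SAGA deubiquitinase, rose by 0.44 and the adaptor subunit Tada2a by 0.33. Both lie near the chromosome's own median described next. After subtraction of that median's excess over the other chromosomes neither passed the test (adjusted p 0.723 for Usp22 and 0.661 for Tada2a).

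Chromosome 11 genes were higher in the null samples as a group. Of its 1282 genes 404 rose (31.5%) and 3 fell (0.234%), so that 31.7% were called in either direction. On the other chromosomes 286 of 14795 rose (1.93%) and 342 fell (2.31%), together 4.24%. Chromosome 11 thus held 58.6% of all 690 genes that rose and 7.97% of the genes compared. Its median log2 change was 0.36, a 1.28-fold difference, with 89.5% of its genes above 0, and the median over the other chromosomes was -0.02 with 45.9% above 0. The 18 other autosomes had medians between -0.05 and 0.01. Along the chromosome, 13 successive bins of 10 Mb had medians between 0.26 and 0.43, all above 0.

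**Figure D1:**
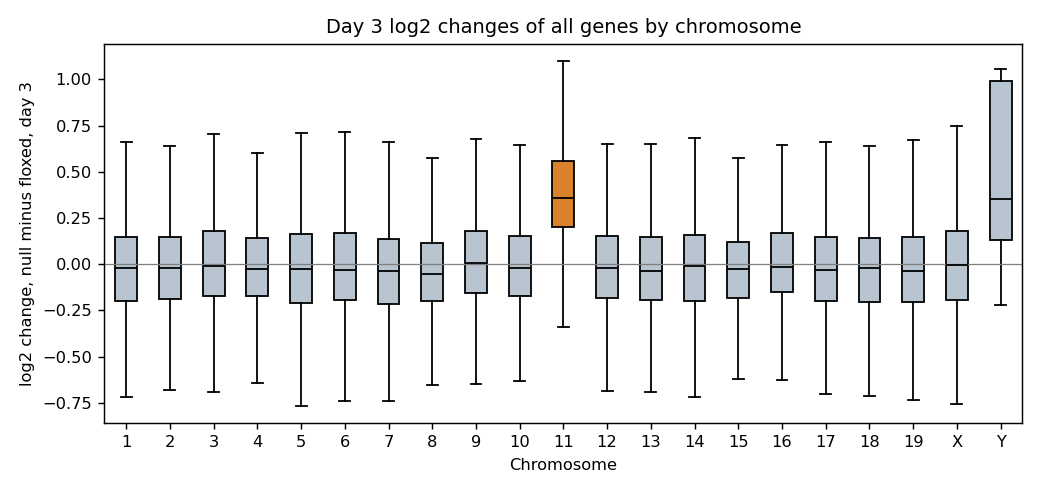
Box plots of the day 3 log2 change (null minus floxed) of all genes compared, by chromosome, with the median, the quartiles and whiskers to 1.5 times the interquartile range. The chromosome 11 box (orange) has its median at 0.36, while the medians of the 18 other autosomes lie between -0.05 and 0.01.

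Each null sample showed the shift by itself. Against the floxed mean of each gene, the median over chromosome 11 was 0.30 in null sample 1, 0.35 in null sample 2 and 0.46 in null sample 3, and between -0.03 and 0.02 in the floxed samples. The share of chromosome 11 genes above the floxed mean was 83.3%, 87.6% and 89.0% in the 3 null samples. Split by mean level, 3 equal classes of chromosome 11 genes, from low to high, had median changes of 0.50, 0.36 and 0.34, while the share that passed the test went from 8.43% through 31.1% to 54.9%. The number of genes that rose on the chromosome was 197 without null sample 3 and 208 without floxed sample 1. The karyotype of the lines is not given in the sources used here, and whether the null line carries an extra copy of the chromosome was not tested.

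The counts on the other chromosomes depended on the setting. With chromosome 11 genes left out of the fit, 176 genes rose and 209 fell there. With the replicate number as a block, 548 (3.7%) rose and 756 (5.11%) fell there, against 538 (42%) and 5 (0.39%) on chromosome 11. Without floxed sample 1 the counts were 104 and 121, without null sample 3 they were 95 and 129, without floxed sample 2 they were 173 and 193, and without null sample 1 the falls numbered 212.

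The 3 falls on chromosome 11 were Grb10, Kat2a and Hmga1b. Grb10, an imprinted adaptor protein that restrains insulin and IGF receptor signalling, had 10255, 9649 and 13357 in the floxed and 1479.8, 1544 and 1013 in the null samples. Its log2 change of -3.05 ± 0.17 (limma adjusted p = 3.20e-06) was the greatest fall on the chromosome among these 3 genes, and every null sample lay far below every floxed one. Hmga1b had 2646, 3019 and 2630.1 in the floxed and 2114, 2218 and 2013 in the null samples (-0.38 ± 0.08, adjusted p = 0.0125), is a near-identical copy of Hmga1, so that its reads may belong to either, and lost its call without null sample 3 (adjusted p = 0.0571) or floxed sample 2 (0.0532).

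The greatest chromosome 11 rises, taken among called genes with non-overlapping groups whose null mean reached 100, were larger than the chromosome's median. Ace, angiotensin converting enzyme, had 31.0, 23.6 and 28.1 in the floxed and 111, 73.6 and 124 in the null samples (1.84 ± 0.28, adjusted p = 0.00286). Gal3st1, a sulfotransferase that makes sulfatide, had 31.0, 63.3 and 37.2 against 95.3, 111 and 182 (1.55 ± 0.28, adjusted p = 0.00792), and Myh3, embryonic myosin heavy chain, had 72.6, 63.3 and 65.3 against 139, 165 and 190.4 (1.28 ± 0.20, adjusted p = 0.00315). No single sample decided the call of any of these 3 genes. Krt19, a keratin, had 150.1, 202 and 96.1 against 406, 331 and 302 (1.26 ± 0.30, adjusted p = 0.0254), and its call was lost without any 1 of null samples 1, 2 and 3 and floxed samples 1 and 3 (adjusted p 0.0576 to 0.0834). Cntd1, which lies antisense to parts of Coa3 and Becn1, changed by 1.24 ± 0.25 (adjusted p = 0.0129), with the call lost without null sample 3 (0.0591). Centring is the subtraction, described next, of the chromosome's median excess over the other chromosomes. After it Krt19 and Cntd1 did not pass (0.143 and 0.0904), while Ace, Gal3st1 and Myh3 did (0.0186, 0.0417 and 0.0331). The histone pseudogene Hist3h2bb-ps changed by 1.22 ± 0.14 (adjusted p = 0.00084), and its reads may be shared with other H2b genes.

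In each sample, the excess of the chromosome 11 median change over that of the other chromosomes was subtracted from the chromosome 11 genes. After this, 21 chromosome 11 genes were still higher, all of them among the 404, and 31 were lower, of which 28 had not been called before. Genes that exceeded the chromosome's shift included Suz12, a core Polycomb repressive complex subunit, with 5389, 5389 and 5203 in the floxed and 10155, 8784 and 9446 in the null samples (0.83 ± 0.07, adjusted p = 0.000115). H3f3b, which encodes the replacement histone H3.3, had 22432, 24132 and 23539 against 33484, 37322 and 44986 (0.71 ± 0.09, adjusted p = 0.00158). Cpeb4, Tex14 and Rad51d rose by 0.96, 1.13 and 0.80. Genes that stayed at or below their floxed level while their neighbours were higher included the splicing factors Srsf1, with 16792, 17187 and 16442 against 13250.1, 16103 and 13377, and Srsf2, with 10394, 11514 and 10456 against 8286, 10381 and 9384. Their uncorrected changes of -0.24 and -0.21 did not pass the test (adjusted p = 0.0863 and 0.143), and Srsf1 alone did so without null sample 2 (0.0216). Trp53, which encodes p53, likewise had 2465, 2614 and 2704 against 2273, 2442 and 2346 (-0.14 ± 0.08, adjusted p = 0.326).

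Outside chromosome 11 the genes that rose had a median log2 change of 0.79 and those that fell one of -0.47, and the rises past 1 on the log2 scale numbered 105 against 50 falls past -1. Several of the gene groups below contain members on both sides of this divide, and the chromosome 11 members are counted apart. In bulk RNA, more cells of a type and more RNA per cell cannot be told apart.

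Part of the hypoxia-induced genes rose. Hypoxia-inducible factor, a dimer of an oxygen-regulated alpha subunit and a constant beta subunit, binds promoters and enhancers through a short core sequence and raises genes for glycolysis, collagen hydroxylation and its own degradation by the Egln prolyl hydroxylases. The letters ACGTG, read on either strand, were searched in windows of the 250 bases before each start in RefSeq (GRCm38.p6). Of the 20 genes of this group that rose, 17 could be matched by symbol. The letters were in 12 of their 22 windows (54.5%), against 21.1% of 14464 windows of all genes compared, and were in 10 of the 17 genes. A match is a description of sequence, not a binding site. Shown are the 100 bases before the start of 5 genes that rose and hold the letters there, 5′ to 3′ on the gene's strand, with ACGTG or its reverse CACGT in capitals. They lie at chr8:124949255-124949354 (Egln1) (minus strand), chr10:59323196-59323295 (P4ha1) (plus), chr11:54100824-54100923 (P4ha2) (plus), chr2:11553930-11554029 (Pfkfb3) (minus) and chr11:120948967-120949066 (Slc16a3) (plus).
Egln1: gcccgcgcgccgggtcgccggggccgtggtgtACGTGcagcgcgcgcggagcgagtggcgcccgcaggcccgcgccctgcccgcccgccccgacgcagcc
P4ha1: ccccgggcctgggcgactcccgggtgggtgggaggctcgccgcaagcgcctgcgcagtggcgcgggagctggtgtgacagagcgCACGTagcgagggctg
P4ha2: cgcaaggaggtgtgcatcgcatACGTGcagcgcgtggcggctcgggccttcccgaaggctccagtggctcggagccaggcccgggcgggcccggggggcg
Pfkfb3: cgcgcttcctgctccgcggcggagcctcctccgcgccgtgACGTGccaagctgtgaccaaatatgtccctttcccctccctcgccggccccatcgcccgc
Slc16a3: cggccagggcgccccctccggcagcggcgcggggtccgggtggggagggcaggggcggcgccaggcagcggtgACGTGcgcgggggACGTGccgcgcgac

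Among hypoxia response genes outside glycolysis, 10 of 27 on the other chromosomes rose and none fell, with a median log2 change of 0.61, and 3 of 3 on chromosome 11 rose. In the same comparison 1.93% of all other-chromosome genes and 31.5% of all chromosome 11 genes rose, and after centring 1 of the 3 passed. Ndrg1, a stress-induced differentiation gene, had 792, 631 and 548 in the floxed and 3108, 1573 and 2633 in the null samples. All 3 null samples lay above all floxed ones, which the choice of the greatest rises required, and the change was 1.85 ± 0.24 (limma adjusted p = 0.00145). Adm, the vasodilator adrenomedullin, had 649, 439 and 286 against 1773, 983 and 1149 (1.54 ± 0.27, adjusted p = 0.00601). Egln1, the main oxygen-sensing prolyl hydroxylase, had 1435, 1352 and 1592 against 2774, 2031 and 2179 (0.66 ± 0.12, adjusted p = 0.0083). Each of these 3 genes kept its call with any 1 sample left out, and in Adm and Egln1 the groups did not overlap. Ero1l, an oxidase for disulfide formation, rose by 1.0 ± 0.19 with the same stability, having 4222, 3939 and 3242 against 10607, 6984 and 5791. The collagen prolyl hydroxylase P4ha1 had 2096, 1636 and 2226 against 4865, 2873 and 4357 (1.0 ± 0.21, adjusted p = 0.0156), and its call was lost without null sample 1 or 3 or floxed sample 2 (adjusted p 0.0602 to 0.0663). Plod2, a collagen lysyl hydroxylase, and Ankrd37 rose by 0.74 and 0.90, the first losing its call without null sample 3 (0.0556) and the second without null sample 1 or floxed sample 2 or 3 (0.0589 to 0.0648). The remaining members that rose were Car12, Ddit4 and Mxi1, with changes of 1.07, 0.86 and 0.62, and the call of Mxi1 was lost without null sample 1 or 3 or floxed sample 2 or 3 (0.0822 to 0.159). P4ha2, the chromosome 11 paralog of P4ha1, had 665, 551 and 680.2 against 1369.9, 1007 and 1271 (0.94 ± 0.12, adjusted p = 0.00158) and still passed after centring of the chromosome (adjusted p = 0.0477). The count of 10 was 5 without null sample 3 and 6 without null sample 1 or floxed sample 2. Car12 and Ddit4 were among the calls lost without null sample 3.

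Glycolysis and pyruvate metabolism genes showed smaller differences. On the other chromosomes 5 of 25 rose and none fell, with a median of 0.30, and both chromosome 11 members rose. Over all genes, 1.93% rose on the other chromosomes and 31.5% on chromosome 11. Pdk1, the kinase that shuts pyruvate out of the mitochondrial cycle, had 6073, 7188 and 5703 in the floxed and 8618, 10880.2 and 11278 in the null samples (0.70 ± 0.11, limma adjusted p = 0.00306). Pfkfb3, which makes the activator of phosphofructokinase, had 481, 510.5 and 477 against 1394, 819 and 768 (0.97 ± 0.19, adjusted p = 0.0106), with null sample 1 well above the other null samples. Gpi1, glucose-6-phosphate isomerase, changed by 0.47 ± 0.10 and lost its call without null sample 3 (0.0528) or floxed sample 2 (0.059). Gys1 and Pgm1, of glycogen metabolism, were the other members that rose, by 0.50 and 0.46, and both calls were lost without null sample 3. On chromosome 11, Aldoc, an aldolase, had 999, 896 and 835 against 2578, 1763 and 2192 (1.25 ± 0.13, adjusted p = 0.000485), and Slc16a3, the lactate exporter, had 6389, 6727 and 6227 against 11996, 11001 and 11748 (0.84 ± 0.11, adjusted p = 0.00173). After centring of the chromosome Aldoc still passed (adjusted p = 0.00875) and Slc16a3 did not (0.0678). The count of 5 was 2 without null sample 3 and 3 without null sample 1, floxed sample 1 or floxed sample 2. Hif1a itself, with 5559, 6002 and 5453 in the floxed and 4356, 5542 and 4504 in the null samples, did not pass (-0.25 ± 0.11, adjusted p = 0.186). Stc1 and Apln, 2 secreted factors outside the lists that were chosen after their values were seen, rose by 1.41 ± 0.32 (adjusted p = 0.0215) and 1.39 ± 0.26 (adjusted p = 0.00801), and the call of Stc1 was lost without null sample 1 or 3 or floxed sample 2 or 3 (0.0597 to 0.0803).

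**Figure D2:**
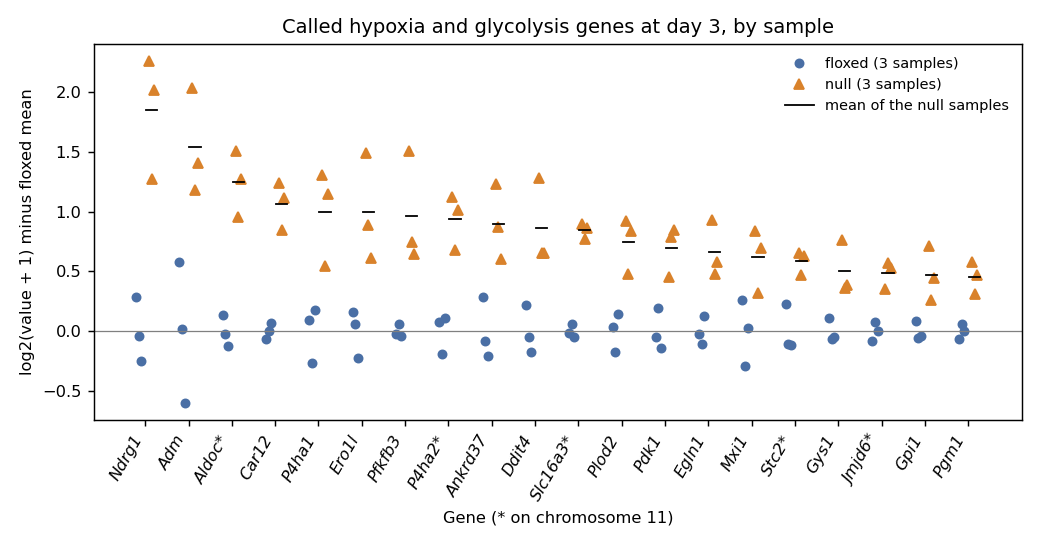
Normalised counts of the 20 hypoxia and glycolysis genes that rose at day 3, as log2(value + 1) minus the mean of the floxed samples, for the 3 floxed samples (circles) and 3 null samples (triangles). Black lines mark the null means, an asterisk marks chromosome 11, and Ndrg1 stands farthest from the floxed samples at 1.85.

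Part of the interferon-stimulated genes rose as well. Interferons and cytosolic nucleic acid sensors act through STAT and IRF transcription factors, which bind repeats of GAAA, and raise guanylate-binding proteins, immunity-related GTPases, RNA sensors and antigen presentation. A pair of GAAA copies set 2 bases apart, read on either strand, was in 8 of 24 such windows (33.3%) of 20 matched genes out of 27 that rose in these groups. It was in 2.41% of the windows of all genes compared and in none of the 22 windows of the hypoxia and glycolysis genes, while ACGTG was in 6 of these 24. Gbp2, Gbp3 and Gbp7 are close paralogs, and the Igtp and Irgm2 windows are near-identical around the match. Their matches are therefore not separate occurrences. Here too a match describes sequence and is not a binding site. Shown are the 100 bases before the start of 6 of them, with the matched bases in capitals (copies of GAAA, or of TTTC for the other strand, and the 2 bases between them), overlapping matches joined. They lie at chr8:61927987-61928086 (Ddx60), chr3:142620563-142620662 (Gbp2), chr3:142559944-142560043 (Gbp3), chr3:142530236-142530335 (Gbp7), chr11:58199456-58199555 (Igtp) and chr11:58214877-58214976 (Irgm2), all on the plus strand.
Ddx60: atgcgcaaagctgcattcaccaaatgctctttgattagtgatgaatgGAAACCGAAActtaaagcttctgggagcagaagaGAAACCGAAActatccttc
Gbp2: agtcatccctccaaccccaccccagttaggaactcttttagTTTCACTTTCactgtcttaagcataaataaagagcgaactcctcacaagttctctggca
Gbp3: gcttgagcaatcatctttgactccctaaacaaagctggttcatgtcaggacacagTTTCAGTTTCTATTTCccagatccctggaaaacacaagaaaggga
Gbp7: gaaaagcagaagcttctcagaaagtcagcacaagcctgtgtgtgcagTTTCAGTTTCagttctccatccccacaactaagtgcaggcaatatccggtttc
Igtp: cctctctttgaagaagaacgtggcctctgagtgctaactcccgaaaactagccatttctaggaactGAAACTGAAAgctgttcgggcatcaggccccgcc
Irgm2: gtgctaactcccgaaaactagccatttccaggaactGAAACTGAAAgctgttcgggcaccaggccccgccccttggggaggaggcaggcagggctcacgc

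Among interferon-stimulated effectors, 10 of 24 on the other chromosomes rose and none fell, with a median log2 change of 0.73, and 4 of 7 on chromosome 11 rose. The shares over all genes that rose were 1.93% on the other chromosomes and 31.5% on chromosome 11. Parp14, an ADP-ribosyltransferase, had 114, 200.5 and 158 in the floxed and 347, 493 and 609 in the null samples (1.61 ± 0.22, limma adjusted p = 0.00193). Oasl2, an oligoadenylate synthetase relative, had 174, 282 and 219.5 against 436, 618 and 764 (1.42 ± 0.21, adjusted p = 0.0029). Among the guanylate-binding proteins, Gbp3 had 60.02, 166 and 56.2 against 285, 486 and 255 (1.98 ± 0.35, adjusted p = 0.00618) and Gbp7 had 77.5, 188 and 116 against 318, 429.7 and 460.5 (1.73 ± 0.28, adjusted p = 0.00378). These 4 genes kept their calls with any 1 sample left out, and in each the lowest null sample lay above the highest floxed one. For Gbp3 and Gbp7 the choice of the greatest rises required this lack of overlap. Gbp2 had 171, 544 and 195 against 567, 1031 and 922, so that its floxed sample 2 nearly reached the lowest null sample, and in Gbp4 and in Gbp2b, which is not on the list, floxed sample 2 was likewise the highest floxed one. Gbp2, Gbp2b and Gbp4 changed by 1.63, 1.75 and 1.74 (adjusted p = 0.0188, 0.0191 and 0.0175), and all 3 calls were lost without null sample 2 or 3 or floxed sample 1 or 3 (0.0552 to 0.0846). The Gbp genes are close paralogs in 2 clusters, and reads may have been split between them. The other members of the list that rose were Gbp6, Trim30a, Parp9 and Dtx3l, with changes of 1.98, 1.96, 0.77 and 0.69, where Gbp6 and Trim30a had null means of only 12.3 and 14.7. On chromosome 11, Ifi35 had 59.0, 106 and 94.3 against 165, 279.8 and 480.1 (1.73 ± 0.32, adjusted p = 0.00834) and the RIG-I ubiquitin ligase Trim25 had 1073, 1448 and 1119 against 1996, 2369.6 and 2540.1 (0.93 ± 0.14, adjusted p = 0.00248). Both still passed after centring of the chromosome (adjusted p = 0.0346 and 0.0482). The immunity-related GTPases Igtp and Irgm2, whose promoters are shown above, changed by 1.26 and 1.43 (adjusted p = 0.0191 and 0.014). Neither passed after centring (0.111 and 0.0806), and both were lost without null sample 2 or 3, and Igtp also without floxed sample 1 (0.0505 to 0.0644). The count of 10 effectors was 4 without null sample 2 or null sample 3 and 5 without floxed sample 1. Gbp6, Trim30a, Parp9 and Dtx3l were among the calls lost without null sample 2 or null sample 3.

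Of the nucleic acid sensing and interferon signalling genes, 4 of 23 on the other chromosomes and both on chromosome 11 rose, none fell, and the median of the former was 0.19. Over all genes, 1.93% rose on the other chromosomes and 31.5% on chromosome 11. Ddx60, a helicase that promotes RNA sensing, had 32.9, 36.5 and 68.0 in the floxed and 123, 149 and 342 in the null samples (2.06 ± 0.35, limma adjusted p = 0.00479) and kept its call with any 1 sample left out. The RNA sensor Ifih1 (Mda5) and the Z-nucleic acid sensor Zbp1 changed by 1.49 ± 0.36 and 1.79 ± 0.44 (adjusted p = 0.0299 and 0.0311), and both were lost without null sample 2 or 3 or floxed sample 1 (0.0542 to 0.121). Socs1, a feedback inhibitor of the pathway, rose by 0.71, and its call was lost without null sample 2 or 3 or floxed sample 1. On chromosome 11 Dhx58 and Irf1 rose by 1.02 and 0.80, neither kept its call in every fit with 1 sample left out, and neither passed after centring (adjusted p = 0.173 for Dhx58). Isg15, a ubiquitin-like protein of the effector list, had 3.87, 16.1 and 6.35 against 7.33, 29.4 and 13.4 and did not pass (0.86, adjusted p = 0.322). The count of 4 was 1 without null sample 2, null sample 3 or floxed sample 1, and 1 with chromosome 11 left out of the fit.

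MHC class I presentation genes, none of which lie on chromosome 11, included 7 of 18 that rose and none that fell, with a median of 0.66. Among all other-chromosome genes 1.93% rose. The class I heavy chain H2-K1 had 1510.2, 1616 and 1271 in the floxed and 2490.4, 2609 and 2309.5 in the null samples (0.76 ± 0.11, limma adjusted p = 0.00289), with no overlap between the groups. H2-Q7 changed by 1.0 ± 0.19 (adjusted p = 0.00943, 0.0506 without null sample 3), and class I heavy chains are near-identical copies whose reads may be split. The immunoproteasome subunit Psmb8 had 21.3, 51.5 and 67.1 against 86.8, 131 and 278 (1.78 ± 0.41, adjusted p = 0.0232) and was lost without null sample 3 (0.0879) or floxed sample 1 (0.0843). Tap2, of the peptide transporter, changed by 1.22 ± 0.26 (adjusted p = 0.0173, 0.0786 without floxed sample 1). Psmb10, Tapbp and Erap1 rose by 1.01, 0.82 and 0.93, each with a call that was lost without null sample 2 or 3 or floxed sample 1 or 3 (0.0532 to 0.173), and the groups overlapped in Erap1. The light chain B2m, with 1021, 852 and 642 against 716, 716 and 620.5, did not pass (-0.27, adjusted p = 0.419). The count of 7 was 2 without null sample 3 or floxed sample 1 and 4 without null sample 2 or floxed sample 3. It was 11 with the replicate block, where 3.7% of all other-chromosome genes rose.

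Markers of other cell types were measured beside these groups, and among all other-chromosome genes 1.93% rose. Of 15 feeder fibroblast markers 10 were among the genes compared, and of the 9 outside chromosome 11, Pdgfrb and Lox rose and none fell. Pdgfrb had 22.3, 17.2 and 38.1 in the floxed and 67.2, 56.2 and 65.3 in the null samples, and Lox had 9.68, 4.29 and 13.6 against 29.3, 24.1 and 21.5, low levels in every sample. The calls of Pdgfrb (adjusted p = 0.0356) and Lox (adjusted p = 0.0416) were lost without any 1 sample other than floxed sample 3 (0.064 to 0.138). Their summed level over the 9 genes was 2047 to 3432 in the floxed and 1278 to 2210 in the null samples. The defining fibroblast genes Col3a1, Postn, Lum, Twist2 and Mgp were not among the genes compared, Thy1 had 123, 164 and 54.4 against 116, 119 and 38.5, and Col1a1 on chromosome 11 had 28.1, 23.6 and 79.8 against 75.8, 72.3 and 104 (1.12, adjusted p = 0.154, 0.0311 without floxed sample 3). Of 8 blood and endothelial genes outside chromosome 11, Cd34 rose (1.08 ± 0.26, adjusted p = 0.0267), and their summed level was 486 to 637 in the floxed and 802 to 1034 in the null samples. The call of Cd34 was lost without any 1 sample other than null sample 1 (0.0548 to 0.089). Kdr, Cdh5 and Gata1 were not among the genes compared. Of 9 trophoblast genes 1 rose, Peg10. At an unadjusted p under 0.05, where the share of all genes is not given, 5 were higher and 1 lower. Their median was 0.78 and their summed level 5280 to 8397 in the floxed and 8841 to 10165 in the null samples, and the list shares Peg10 with the imprinted and Rhox6 and Rhox9 with the X-linked germline genes described further on. The part of these cell types in the interferon, imprinted and germline results was not tested.

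**Figure D3:**
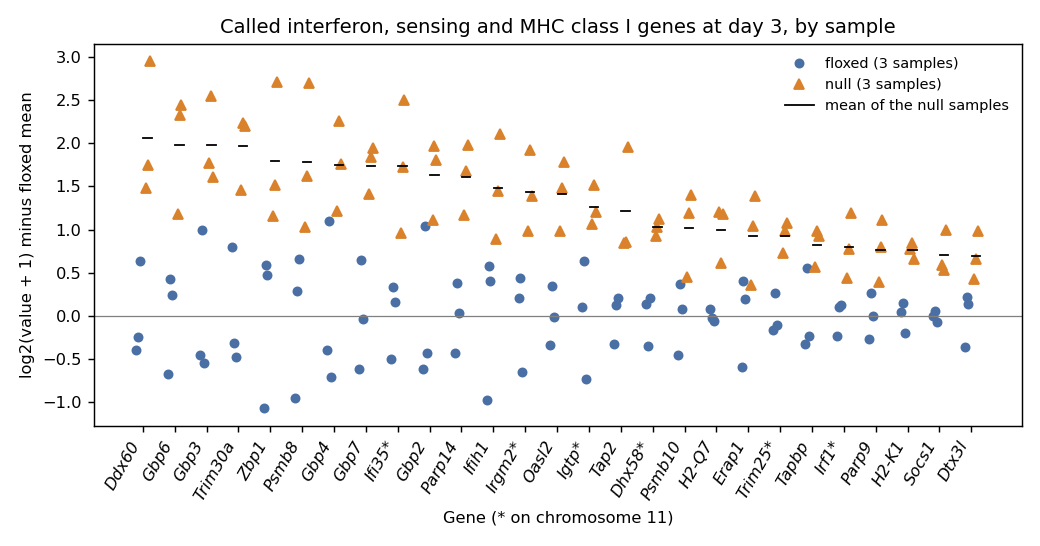
Normalised counts of the 27 interferon, nucleic acid sensing and MHC class I genes that rose at day 3, as log2(value + 1) minus the mean of the floxed samples, for floxed (circles) and null samples (triangles). Black lines mark the null means and an asterisk marks chromosome 11, and floxed sample 2 is the highest floxed sample for Gbp2, Gbp3 and Gbp4.

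The 4 deepest falls outside chromosome 11 among the named genes were imprinted. Imprinted genes are expressed from the maternal or the paternal allele according to DNA methylation marks set in the germ line, and several lie in clusters where noncoding RNAs of one allele accompany silencing of the genes beside them. Of 23 maternally expressed genes outside chromosome 11, 7 fell and none rose, with a median of -0.33, against 2.31% that fell among all other-chromosome genes. Of 24 paternally expressed genes there, 5 rose and none fell, with a median of 0.40, against 1.93% that rose among all other-chromosome genes. Which allele the reads came from is not in the table.

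The noncoding RNAs of the Dlk1-Meg3 domain on chromosome 12 fell to low levels. Meg3 had 506, 439.7 and 286 in the floxed and 28.1, 10.7 and 17.9 in the null samples (-4.43 ± 0.71, limma adjusted p = 0.0037). Rian had 3069, 2719.7 and 1437 against 203, 50.9 and 68.0 (-4.67 ± 0.49, adjusted p = 0.000571), and Mirg, the host of a microRNA cluster, had 274, 267 and 170.5 against 12.2, 4.02 and 5.37 (-4.96 ± 0.43, adjusted p = 0.000115). In all 3 RNAs null sample 1 was the highest null sample and still lay far below the lowest floxed one. The choice of the greatest falls required groups that did not overlap. Dlk1, the paternally expressed gene of the domain, had 44.5, 24.7 and 50.8 against 41.5, 26.8 and 34.9 and did not pass (-0.17 ± 0.25, adjusted p = 0.745).

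On chromosome 7 the maternally expressed H19 and Cdkn1c fell. H19, a noncoding RNA, had 262, 346 and 278 in the floxed and 66.0, 32.1 and 20.6 in the null samples (-3.02 ± 0.47, limma adjusted p = 0.00332). Cdkn1c, the cyclin-dependent kinase inhibitor p57, had 493, 697 and 660.2 against 176, 137 and 178 (-1.90 ± 0.26, adjusted p = 0.00194). The groups did not overlap in either gene, which the choice of the greatest falls required. Igf2, the paternally expressed growth factor beside H19, had 118, 131 and 160.5 against 128, 120.5 and 197 and did not pass (0.10 ± 0.29, adjusted p = 0.882). Kcnq1ot1, the paternal noncoding RNA of the cluster that holds Cdkn1c, had 1866, 1439 and 1529 against 3853, 2898 and 1851 with overlapping groups, and its change of 0.78 ± 0.26 passed with the replicate block (adjusted p = 0.0137, against 0.0945 without it) or without null sample 3 (0.0388).

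A pair of transcripts at 1 imprinted locus on chromosome 2 moved in opposite directions. Mcts2, a retrogene expressed from the paternal allele within an intron of H13, had 355, 382 and 310.2 in the floxed and 534, 676 and 477 in the null samples (0.68 ± 0.13, limma adjusted p = 0.00878). H13, a signal peptide peptidase that was not on the lists and was chosen after its values were seen, had 988, 1259 and 1299 against 544, 554 and 629 (-1.03 ± 0.10, adjusted p = 0.000476). Gnas, elsewhere on chromosome 2, had 9226, 8550.5 and 9880.0 against 7158, 5963 and 6375 (-0.51 ± 0.08, adjusted p = 0.0032), and this locus makes maternal, paternal and biallelic transcripts that gene-level counts do not separate. Igf2r on chromosome 17, the clearance receptor for IGF2, fell by 0.33 on the log2 scale (7564, 8134 and 8763 against 6876, 5726 and 6936, adjusted p = 0.0455), a call that was lost without any 1 of the 6 samples (0.0585 to 0.133).

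Rises were seen in neighbours on chromosome 6. Peg10, a retrotransposon-derived gene needed in the placenta, had 1704, 2162 and 2976 in the floxed and 7226, 5498 and 7991 in the null samples (1.62 ± 0.27, limma adjusted p = 0.00444). Sgce, next to it, had 205, 249.9 and 294 against 557, 490.0 and 672 (1.20 ± 0.15, adjusted p = 0.00145). Snrpn on chromosome 7, a small nuclear ribonucleoprotein gene of the Prader-Willi region, had 1060.0, 1109 and 953 against 1900.2, 2628 and 1939 (1.04 ± 0.14, adjusted p = 0.00162). All 3 kept their calls with any 1 sample left out. Inpp5f was the fifth rise, by 0.37 (adjusted p = 0.0459). The paternal count of 5 was 8 with the replicate block, where 3.7% of all other-chromosome genes rose. On chromosome 11, Zrsr1 rose by 0.90 ± 0.13 (adjusted p = 0.00248, 0.0527 after centring) beside the fall of the maternally expressed Grb10. Of 22 genes for DNA methylation and imprint maintenance none rose or fell by limma or by edgeR, 3 had an unadjusted p under 0.05, and the zinc finger imprint factor Zfp445 had 2138, 2062 and 1885 against 1656, 1841 and 1634 (-0.25, adjusted p = 0.0619, 0.0384 with the replicate block, 0.044 without null sample 2 and 0.0484 without floxed sample 3).

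**Figure D4:**
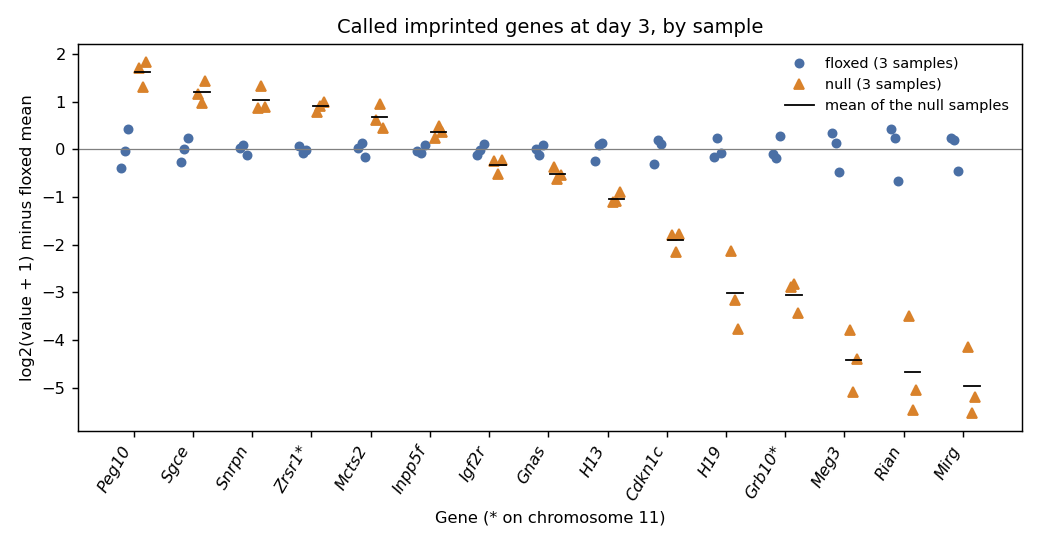
Normalised counts of the imprinted genes that rose or fell at day 3, as log2(value + 1) minus the mean of the floxed samples, for floxed (circles) and null samples (triangles). Only called genes are shown. Those listed as paternally expressed stand above the floxed samples, Peg10 farthest at 1.62. Those listed as maternally expressed, Gnas among them, stand below, with Mirg at -4.96. H13, which was not on the lists, was added after its values were seen. An asterisk marks chromosome 11.

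Some X-linked germline genes rose. Germline genes of this kind are silenced in somatic cells by promoter DNA methylation and are often expressed in testis or placenta. Of 17 compared, 4 rose and none fell, with a median log2 change of 1.02, and all 17 had a change above 0. Nxf3, an mRNA export factor relative, had 99.7, 80.4 and 88.0 in the floxed and 365, 362 and 439.9 in the null samples (2.11 ± 0.14, limma adjusted p = 8.18e-06). Usp26, a deubiquitinase, had 492, 640.2 and 599 against 1834, 2588 and 3479 (2.15 ± 0.28, adjusted p = 0.00158). Pnma5 had 81.3, 89.0 and 88.9 against 270.1, 347 and 502 (2.05 ± 0.29), and Asb9 had 31.9, 65.4 and 39.9 against 125, 229 and 201 (2.01 ± 0.33). Each null sample was above each floxed sample in all 4 genes, which the choice of the greatest rises required. The calls held with any 1 sample left out. Others that did not pass included the Xlr3a gene, with means of 10.2 and 73.4 (2.58, adjusted p = 0.0509), and Rhox6, Rhox9 and Rhox5, with changes of 1.29, 1.02 and 0.99. The Xlr and Rhox genes are tandem copies whose reads may be split. With the replicate block 10 of the 17 rose. Over the whole X chromosome 24 of 562 genes rose and 22 fell, and its median was -0.01. Among all other-chromosome genes 1.93% rose and 2.31% fell, and 3.7% rose with the block. Of 9 genes on the Y chromosome, Kdm5d, Ddx3y and Uba1y rose by 0.99, 0.55 and 1.06, the first losing its call without null sample 3 or floxed sample 1 or 3 (0.0522 to 0.0623) and the third without null sample 3 (0.0505). Of 23 methylation-sensitive germline genes outside chromosome 11 none passed by limma or edgeR, and the median was 0.31. At an unadjusted p under 0.05, where the share of all genes is not given, 4 were higher and 1 lower. Stra8, a meiotic gatekeeper, had 723, 878 and 1349.5 against 1369.9, 1558 and 3227 (1.0 ± 0.32, adjusted p = 0.0875).

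Outside chromosome 11, 1 of 23 FGF genes and 3 of 19 ERK genes fell, against 2.31% of all other-chromosome genes, and these pathways are the study's stated interest. FGF ligands signal through receptor tyrosine kinases to ERK, which raises Etv factors and the feedback inhibitors of the Sprouty, Spred and Dusp families. Among the ligands, Fgf5, the ligand of the primed epiblast, had 228, 241 and 188 in the floxed and 79.4, 115 and 82.3 in the null samples (-1.25 ± 0.30, limma adjusted p = 0.0274). Its groups did not overlap, and its call was lost without null sample 1 or 3 or floxed sample 1 or 2 (0.0835 to 0.0934). Fgf8 had 203, 209 and 674 against 226, 177 and 299.5, where floxed sample 3 was more than any other sample, and its change of -0.42 ± 0.38 (adjusted p = 0.553) turned to 0.15 without that sample. Of 23 FGF ligands, receptors and adaptors outside chromosome 11, Fgf5 was the 1 that passed, 6 fell with the replicate block, 3 without null sample 1, 2 without floxed sample 2 and none without null sample 3 or floxed sample 1. With the block 5.11% of all other-chromosome genes fell.

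Among ERK feedback genes, Spry2, an inhibitor of receptor signalling, had 1558, 1317 and 1887 in the floxed and 847, 892 and 970.1 in the null samples (-0.80 ± 0.13, limma adjusted p = 0.00359) and kept its call with any 1 sample left out. Dusp6, the ERK phosphatase, had 1802, 1832 and 1896 against 1057, 1274 and 1113 (-0.69 ± 0.15, adjusted p = 0.0189), with no overlap, and its call was lost without any 1 sample other than null sample 2 (0.0509 to 0.0679). Spred3, which overlaps Ggn on the opposite strand, changed by -0.98 ± 0.26 (adjusted p = 0.0436), again lost without any 1 sample other than null sample 2 (0.0782 to 0.138). Spry4 had 247, 362 and 262 against 175, 258 and 144 and did not pass (-0.61 ± 0.34, adjusted p = 0.307). Ier3, an immediate early gene, rose, with 285, 315 and 141 against 1026, 644 and 465 (1.53 ± 0.32, adjusted p = 0.014, 0.0514 without null sample 1). In all, 3 of 19 ERK genes outside chromosome 11 fell and 1 rose, with a median of -0.30 (falls: 5 with the replicate block, and 1 without null sample 1, null sample 3 or any 1 floxed sample). Of all other-chromosome genes, 5.11% fell with the block. The 4 on chromosome 11, Dusp14, Spred2, Etv4 and Lif, had changes above 0 and none passed by limma, with 1 at an unadjusted p under 0.05.

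Myc, the transcription factor in the study's title, had 176, 200.5 and 138 in the floxed and 127, 131 and 79.6 in the null samples. The groups did not overlap, yet the change of -0.62 ± 0.30 did not pass the limma test (adjusted p = 0.24), and it did with the replicate block (0.0225). Of 47 Myc targets and ribosome biogenesis genes outside chromosome 11, 4 fell and 1 rose, with a median of -0.13, while 6 of 13 on chromosome 11 rose and none of these passed after centring. With the replicate block 7 fell, against 5.11% of all other-chromosome genes. Without null sample 1 or 3 or floxed sample 1 or 2 the falls numbered 1. Cdk4, the G1 kinase, had 13720.4, 13511 and 12954 against 9535, 10879 and 9381 (-0.43 ± 0.08, adjusted p = 0.00753) and kept its call with any 1 sample left out. On chromosome 11 Tmem97 and C1qbp rose by 0.55 and 0.43, and neither passed after centring of the chromosome (0.247 and 0.858). Ribosomal protein genes had a median of -0.13 over 61 genes outside chromosome 11, of which 3 fell (4.92%, against 2.31% of all genes there), and a median of 0.24 over 6 genes on it, of which 3 rose (against 31.5%). Rps19 fell by 0.35 and Rpl31 by 0.28 on the log2 scale, and no fall in the list remained without null sample 1, 2 or 3 or floxed sample 1 or 2. In the fit with chromosome 11 centred, the Rpl38 and Rpl27 changes turned from 0.31 and 0.30 to -0.09 for both genes.

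Few developmental markers passed the test, and among all other-chromosome genes 1.93% rose and 2.31% fell. Pou5f1, which encodes the pluripotency factor Oct4, had 13732, 13382 and 8566 in the floxed and 10791, 10542 and 7169 in the null samples and Nanog had 5622, 4032 and 4963 against 4989, 3074 and 2952, and neither passed (-0.32, limma adjusted p = 0.508, and -0.44, adjusted p = 0.383). Of 22 naive pluripotency genes 1 fell, Sall4 (-0.42 ± 0.10, adjusted p = 0.0278), and of 17 primed epiblast genes Fgf5 and Otx2 fell. Otx2 had 375, 305 and 191 against 204, 129.9 and 89.4, where the groups overlapped (-1.06 ± 0.29, adjusted p = 0.0454, 0.052 with edgeR). The calls of Sall4 and Otx2 were lost without null sample 2 or 3 or floxed sample 1 or 2, and that of Sall4 also without floxed sample 3 (0.0562 to 0.172). Of 12 primitive streak genes outside chromosome 11, Rspo3 fell from a low level (14.5, 13.9 and 17.2 against 8.55, 1.34 and 5.37, adjusted p = 0.0478), a call that was lost without any 1 sample other than null sample 1 (0.0871 to 0.118), and T (Brachyury) had 75.5, 98.7 and 67.1 against 48.9, 62.9 and 46.5 (-0.59 ± 0.59, adjusted p = 0.605). Of 21 extraembryonic endoderm genes outside chromosome 11 none passed by limma or edgeR, and 1 was higher at an unadjusted p under 0.05.

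Neural genes were lower at the median. Of 18 neural ectoderm genes outside chromosome 11, 2 fell, 15 had a change below 0 and the median was -0.69, with 7 falls under the replicate block. Among all other-chromosome genes 2.31% fell, and 5.11% with the block. Meis2, a homeobox cofactor, had 942, 479 and 2287 in the floxed and 272, 145 and 446 in the null samples (-1.95 ± 0.47, limma adjusted p = 0.0279), where floxed sample 3 and null sample 3 were each the highest of their group. The call of Meis2 was lost without null sample 1 or 2 or floxed sample 1 or 3 (0.0648 to 0.0909). Sox1, an early neural factor, had 1807, 827 and 2786 against 925, 525 and 1059.5 (-1.0 ± 0.35, adjusted p = 0.111) and Pax6 had 480.2, 174 and 742 against 226, 126 and 283 (adjusted p = 0.257). Both passed with the replicate block (0.0369 and 0.0352), and Sox1 also without floxed sample 2 (0.0123). Leaving out floxed sample 2 gave 6 falls in the list and leaving out null sample 1 or 2 or floxed sample 1 or 3 gave 0, with 1 without null sample 3.

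Among neuronal and synaptic genes, Dlgap3, a postsynaptic scaffold, had 782, 583 and 932 in the floxed and 315, 286 and 300.4 in the null samples (-1.32 ± 0.16, limma adjusted p = 0.00139), and Stmn2, a microtubule regulator chosen after its values were seen, had 1156, 1057 and 1058 against 693, 636 and 396 (-0.96 ± 0.18, adjusted p = 0.00828). Both kept their calls with any 1 sample left out. Stmn3, a relative of Stmn2, and the complexins Cplx1 and Cplx2, which act in vesicle release, fell, with log2 changes of -1.32, -1.17 and -1.59 (adjusted p = 0.0324, 0.0455 and 0.0488). Stmn3 lost its call without any 1 sample other than null sample 2, Cplx1 without any other than null sample 1 and Cplx2 without any other than floxed sample 2 (0.0527 to 0.148). In the list of synaptic genes Sv2c, a vesicle protein, rose, with 33.9, 40.8 and 29.0 against 72.1, 142 and 108 (1.57 ± 0.30, adjusted p = 0.00881). Of its 28 genes outside chromosome 11 3 rose and 2 fell, with a median of 0.06, against 1.93% and 2.31% of all other-chromosome genes. Ptn, a heparin-binding growth factor, had 399.8, 294 and 741 against 164, 206 and 193 (-1.24 ± 0.27, adjusted p = 0.0186, lost without null sample 1 or 3 or floxed sample 1, 0.0502 to 0.0629).

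Id2, an inhibitor of helix-loop-helix factors and BMP target, had 153, 109 and 380.0 in the floxed and 88.0, 83.0 and 61.7 in the null samples (-1.26 ± 0.34, limma adjusted p = 0.0446), and its call was lost without any 1 sample other than floxed sample 2 (0.0627 to 0.148). Fst, the activin antagonist follistatin, had 219, 371 and 396 against 118, 199.5 and 127 (-1.14 ± 0.24, adjusted p = 0.0156) and lost its call without null sample 1 or 3 or floxed sample 2 or 3 (0.053 to 0.0659). These were the 2 of 27 Nodal and BMP genes that fell, and none rose. For this and the next lists, 2.31% of all other-chromosome genes fell and 1.93% rose. Of 16 Hedgehog genes the transcriptional effectors Gli1 and Gli2 fell, by 1.22 and 0.72 on the log2 scale (adjusted p = 0.0374 and 0.0372), and both calls were lost without null sample 2 or 3 or any 1 floxed sample, that of Gli2 also without null sample 1 (0.0522 to 0.124). In the IGF pathway, Irs2, the insulin receptor substrate, had 867, 792 and 950.5 against 541, 448 and 571 (-0.74 ± 0.10, adjusted p = 0.00175), and the RNA-binding protein Igf2bp3 had 5685, 5300.0 and 6551 against 4143, 4268 and 4328 (-0.46 ± 0.09, adjusted p = 0.00948). Both kept their calls with any 1 sample left out. With Igf2r they were 3 falls among 14 genes of this list outside chromosome 11, and Grb10 was 1 of 4 on it, where 0.234% of all genes fell. Of 27 cholesterol and fatty acid synthesis genes outside chromosome 11 2 rose, with a median of 0.04. On it 4 of 4 rose, against 31.5% of all its genes, and none of the 4 passed after centring. Scd1, the stearoyl desaturase of fatty acid synthesis, rose, with 2891, 3342 and 2265 against 4921, 5719 and 4096 (0.80 ± 0.16, adjusted p = 0.0126). Of 41 nuclear oxidative phosphorylation genes none passed the main limma test or edgeR, and the median was -0.05. At an unadjusted p under 0.05, where the share of all genes is not given, 7 were lower. With the replicate block 4 fell, against 5.11% of all other-chromosome genes. Cox5b, a cytochrome oxidase subunit, lay at the threshold (-0.30 ± 0.08, adjusted p = 0.05002) and passed with the block (0.0359), a pseudocount of 5, TMM scaling, the filter on the day 3 groups or without null sample 3 (0.0225 to 0.0493).

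Other lists held few calls outside chromosome 11, where 1.93% of all genes rose and 2.31% fell. Of 31 DNA replication genes 1 fell, of 27 mitosis genes 1 rose, of 24 p53 targets 1 rose, and of 31 replication-dependent histone genes 2 fell. The mitosis rise, Bub1 (0.26, adjusted p = 0.0495), and the p53 target rise, Rrm2b (0.41, adjusted p = 0.0416), both missed the threshold with edgeR (0.0587 and 0.0535). On chromosome 11, where 31.5% of all genes rose, the rises were 3 of 3 mitosis genes, 1 of 3 replication genes, 1 of 2 p53 targets, 1 of 2 histone genes, 2 of 5 lysosome genes and 2 of 3 synaptic genes, and none of them passed after centring. Top2a, the topoisomerase of mitotic chromosomes, went from 0.60 to 0.21 with centring (adjusted p = 0.244). Of 22 Wnt genes outside chromosome 11 1 fell. On it 2 of 7 rose, Tcf7 and Znrf3, and neither passed after centring (0.233 and 0.635). Of 24 actin and SRF target genes 1 fell, with a median of -0.30. Of 25 lysosome and autophagy genes 2 fell, among them Map1lc3b, an autophagosome protein, with 2582, 2393 and 2165 in the floxed and 1773, 1683 and 1571 in the null samples (-0.50 ± 0.08, limma adjusted p = 0.00477).

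Day 5 samples, which share no library with day 3, were used to follow these genes. Both days were tested in the same limma fit and share its estimate of each gene's spread. A gene's calls at the 2 days are therefore not independent, which can raise the shares called at both. Of the 286 other-chromosome genes that rose at day 3, 195 (68.2%) also rose at day 5, 7 fell and 259 had the same sign, while 10.8% of all other-chromosome genes rose at day 5. Of the 342 that fell, 231 (67.5%) fell again, 1 rose and 322 had the same sign, while 14.8% of all fell. Of the 404 chromosome 11 rises, 302 (74.8%) rose again, none fell and 395 had the same sign, against 42.4% of the chromosome's genes that rose, 2.57% that fell and 44.9% that did either at day 5. Both lines are the same at the 2 days, so the comparison concerns these lines only. The median changes at day 3 and day 5 were 0.79 and 0.72 for the other-chromosome rises, -0.47 and -0.42 for the falls, and 0.49 and 0.42 for the chromosome 11 rises. The difference between days was tested as an interaction, which 71 genes of the other chromosomes (0.48%) and 8 of chromosome 11 (0.624%) passed, and of the day 3 calls it was passed by 11 rises and 3 falls on the former and 2 rises and 1 fall on the latter.

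**Figure D5:**
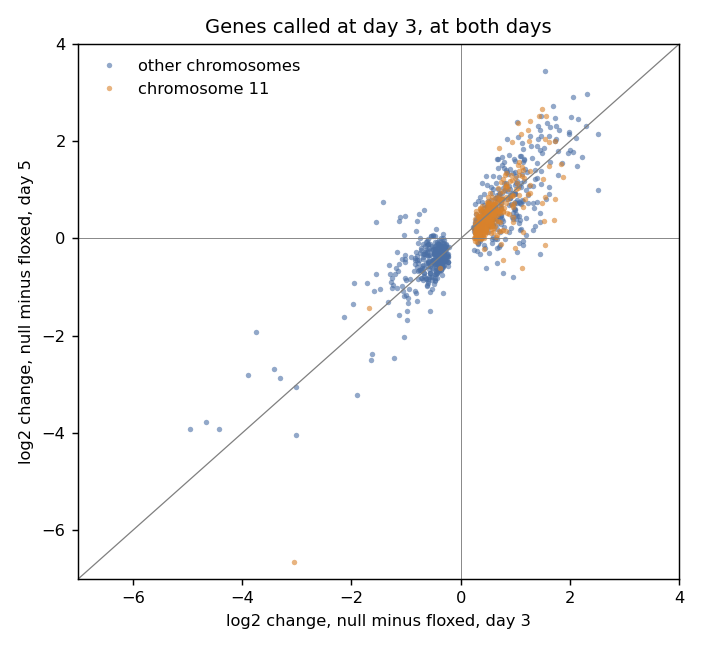
Log2 change (null minus floxed) at day 3 (horizontal axis) against day 5 (vertical axis) for each gene that rose or fell at day 3, with chromosome 11 genes in orange and a line of equality. Most points lie in the same quadrant at both days, and the lowest point is Grb10 at -3.05 and -6.66.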

How the data were processed

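RNA-seq values of 12 embryoid body samples in 4 groups of 3 were used. The authors' deposited values are signal values, read counts per gene divided by 1 size factor per sample. All nonzero values (100%, tolerance 0.01) were whole multiples of the value of 1 read, so the whole reads could be recovered for a count test. Per the labels' protocols, libraries were made from stranded total RNA with 8 PCR cycles. Per the submitters' processing notes, the build was mm10 and the tools named were DESeq 1.16.0, HTSeq 0.6.0, TopHat2 2.0.10 and CASAVA 1.8.2. Whether counting used strand is not given in the sources used here, so reads of overlapping antisense genes may not be told apart.

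The main test was limma 3.58.1 in R 4.3.3, with trend, on log2(value + 1), which understates the change of low genes. It was fitted with 4 group means to the 17000 genes whose mean reached 10 in any group, with Benjamini-Hochberg adjustment over all of them and a threshold of 0.05. The recovered counts were also tested with edgeR 4.0.16. Of the gene IDs, 18199 matched GENCODE M21 (GRCm38) without their version and 70 did not.

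Named genes were Kat2a, Kat2b, Myc, Fgf5, Fgf8, Dusp6, Spry4 and T, then the 10 greatest chromosome 11 rises and all falls there, and the 12 greatest rises and 12 greatest falls elsewhere. These greatest changes were taken among called genes with non-overlapping groups where the higher group's mean reached 100. Up to 4 called members per list were added, and further genes were chosen after their values were seen. Some genes that the rule names are not reported here. The genes and lists were chosen with earlier results of these data known. Lists are described by counts and medians, without a test.

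Deviations from the group mean correlated at 0.27, 0.304 and 0.372 between same-numbered day 3 samples, against at most -0.0175 between different numbers. Deviations cancel within each group, so this contrast is partly built in. Whether the replicate numbers mark a pairing was not tested, and the main test leaves them out. Alternatives were another pseudocount, filter, scaling or tool, day 3 samples alone, the replicate block, each replicate left out, and chromosome 11 centred or left out. The scripts were tested on simulated data.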

Additional observations from a re-analysis of the deposited data

Results flagged for a closer look

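The genotype difference of Grb10 was not the same at both days. Its null minus floxed log2 change was -3.05 at day 3 and -6.66 at day 5, and the interaction of genotype and day was -3.61 (limma adjusted p = 2.92e-05).

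Igf2r also differed between the days. Its log2 change was -0.33 at day 3 and -1.12 at day 5, with an interaction of -0.79 (limma adjusted p = 0.0308).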

How the results depend on the processing

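With the replicate number as a block, 548 other-chromosome genes rose and 756 fell at day 3, 5 fell on chromosome 11, and 372 rose and 488 fell at both days. Among the genes described above, the block added Myc, Kcnq1ot1, Zfp445, Sox1, Pax6 and Cox5b. Day 3 samples fitted alone gave 156 rises and 197 falls on the other chromosomes. Without chromosome 11 genes the counts were 176 and 209, with 144 falls at both days. Leaving out 1 sample gave 95 to 197 rises and 121 to 264 falls on the other chromosomes, 197 to 353 rises on chromosome 11, 78 to 161 rises at both days and 88 to 192 falls at both days. The lowest of these counts came without null sample 3 or floxed sample 1. Falls at both days numbered 141 without null sample 1 and 124 without floxed sample 2. The cause was not tested. The chromosome 11 median was 0.32 to 0.40 in these fits. With chromosome 11 centred, its median was -0.033 by construction, 21 of its genes were higher and 31 lower, and 225 other-chromosome genes fell. The other-chromosome median was -0.018 with upper-quartile scaling. Counts under the other pseudocount, the other filters, upper-quartile or TMM scaling and edgeR stayed within 1.5 times of those reported.

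Centring turned the sign of Tada2a to -0.07, Kat7 to -0.01, Maml1 to -0.04, Pes1 to -0.02, Rpl38 and Rpl27 to -0.09, Rpa1 to -0.09, Birc5 to -0.12, Ccng1 to -0.03, Canx to -0.05, Hspa4 to -0.09 and Nlgn2 to -0.01. Genes without a call that changed sign were Fgf8 (-0.71 without floxed sample 1 to 0.15 without floxed sample 3), Dlk1 (-0.48 without floxed sample 2 to 0.03 without floxed sample 3), Igf2 (-0.12 without null sample 3 to 0.23 without null sample 2, and -0.00 without floxed sample 1) and Thy1 (-0.80 without floxed sample 3 to 0.19 without null sample 3). Of 147 named genes that were called, 73 kept the call with any 1 sample left out and 74 did not. Igf2r, Lox, Pdgfrb, Spred3, Tapbp, Otx2, Rspo3, Bub1 and Rrm2b missed the threshold with edgeR. Depth limits the genes of low level.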
